A study of Mus musculus with 6 samples.

Results

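Transcripts of 9 JAK-STAT genes were followed in hematopoietic stem cells (HSCs) with and without the lymphotoxin beta receptor (LTβR, gene *Ltbr*). They were the JAK kinases *Jak1*, *Jak2*, *Jak3* and *Tyk2*, the transcription factors *Stat3*, *Stat5a*, *Stat5b* and *Stat6*, and the feedback inhibitor *Socs2*. The genes were chosen by name and not by a threshold on measured values, though with earlier results of these data known, and 9 of 9 were found once each among the 26216 gene names of the data. LT/ST-HSCs (long-term and short-term HSCs) came from the bone marrow of mixed chimeras and were sorted 6 weeks after a first transplantation, as lineage-negative and Annexin-V-negative cells that carried sca1, c-kit and CD150 and lacked CD48. In each chimera, a lethally irradiated Ly5.1/Ly5.2 recipient had received *Ltbr*-/- (CD45.2) and Ly5.1 (CD45.1, *Ltbr*-proficient) LSKs in equal numbers. Both genotypes thus shared the irradiated host and the transplantation, and cells of several chimeras were pooled into 3 biological replicates of each genotype. The *Ltbr*-/- donors were homozygous from the germline for a deletion within the gene and 10 to 13 weeks old, and the Ly5.1 donors were 7 to 13 weeks old. Donor age and congenic background went with genotype and cannot be told apart from it.

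JAK kinases sit on the inner side of cytokine receptors that have no kinase of their own. When a cytokine brings the receptor chains together, the JAKs phosphorylate them and the STAT proteins that dock there, and STAT dimers enter the nucleus and bind DNA. SOCS proteins are made in response and dampen the receptor. Jak2 with the STAT5 proteins serves cytokines that maintain HSCs and drive blood formation, whereas LTβR belongs to the TNF receptor superfamily and is best known for activating NF-κB rather than JAKs. The RNA measured here gives the amount of each transcript and not the phosphorylation by which JAKs and STATs are switched on.

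The 9 genes lie at 7 places in the mouse genome (GRCm38.p6, RefSeq), and all of them are protein-coding. *Jak1* is at chr4:101151974-101265282, *Jak2* at chr19:29251803-29313095, *Jak3* at chr8:71676383-71690577 and *Tyk2* at chr9:21104068-21131393. *Stat6* is at chr10:127642955-127660987 and *Socs2* on the same chromosome at chr10:95383903-95417321. The other 3 STAT genes are direct neighbours on chromosome 11, with *Stat5b* at chr11:100780731-100859004, *Stat5a* at chr11:100859351-100885169 and *Stat3* at chr11:100886806-100939594. Only 346 bases separate *Stat5b* from *Stat5a*, and 1636 bases separate *Stat5a* from *Stat3*.

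*Stat5a* and *Stat5b* are near-identical paralogs, and part of their coding sequence cannot be told apart with reads of 76 bases. Their longest identical run in the GENCODE M21 transcripts is 324 bases long and lies within both coding sequences, at transcript bases 904 to 1227 of *Stat5a* and 1058 to 1381 of *Stat5b*. Its first 152 bases, shown because a read placed wholly inside them fits both genes, are the same in both transcripts:
Stat5a and Stat5b: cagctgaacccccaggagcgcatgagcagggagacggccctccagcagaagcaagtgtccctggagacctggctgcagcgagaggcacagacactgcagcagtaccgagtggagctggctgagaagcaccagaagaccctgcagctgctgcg
Where the run ends, single bases begin to separate the genes. The next stretches of 120 bases hold the last 30 bases of the run and the 90 after it, with the 2 bases that differ in capitals:
Stat5a: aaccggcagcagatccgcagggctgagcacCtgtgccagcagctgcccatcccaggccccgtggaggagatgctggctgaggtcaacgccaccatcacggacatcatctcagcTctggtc
Stat5b: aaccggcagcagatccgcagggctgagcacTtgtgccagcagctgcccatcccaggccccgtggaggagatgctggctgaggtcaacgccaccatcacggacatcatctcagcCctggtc
Of all 76-base windows of the longest *Stat5a* transcript, 9.99% also occur in *Stat5b*, and 7.42% of the *Stat5b* windows occur in *Stat5a*. How such reads were assigned is not given in the sources used here, so the values of both genes carry that uncertainty. *Jak3* shares 8.34% of its windows with *Insl3*, a gene that overlaps it and had a signal of 139 to 165, and *Socs2* shares 13.8% with *Gm9847*. The transcripts of *Jak1*, *Jak2*, *Tyk2*, *Stat3* and *Stat6* share 0 windows with another gene.

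The deposited value is a normalized signal per gene, on a linear scale, that the authors' software made from regularized log values. Its log2 was compared between genotypes in 13108 gene names, and depth cannot be read from it. A gene is said to have risen or fallen at an adjusted p under 0.05 (limma, Benjamini-Hochberg over all tested genes), and is called if it also differed by at least 1.5-fold. The signal of *Ltbr* itself was 24.2, 26.4 and 23.1 in *Ltbr*-/- LT/ST-HSCs and 564, 549 and 522 in Ly5.1 cells, so that the samples matched their labels. All 9 HSC markers examined were expressed, and the T cell genes *Cd3e* and *Cd8a* were near the lowest value the data hold. Of B and plasma cell markers *Ms4a1* was as low, but of 4 tested *Cd79a* was called higher and *Ighm* and *Igkc* were called lower. Over all tested genes 2.78% were called. Neutrophil markers (7 of 7 found) summed to 27529 to 27771 in *Ltbr*-/- and 37236 to 40173 in Ly5.1 samples. Mast cell and basophil markers (7 of 7 found) summed to 7510 to 8080 in *Ltbr*-/- and 4119 to 4705 in Ly5.1 samples. Most of that gap lay in *Cma1*, and of 6 tested markers 2 rose and 1 fell. The summed signal in *Ltbr*-/- and Ly5.1 samples was 11917 to 12603 and 13294 to 13622 for HSC, 1397 to 1532 and 2251 to 2415 for B or plasma cell, 3132 to 3420 and 2646 to 2849 for monocyte, 3403 to 3731 and 2519 to 2778 for erythroid, 11921 to 12648 and 9493 to 10726 for megakaryocyte, and 56.1 to 57.3 and 55.6 to 58.9 for T and NK cell markers. Such sums can rest on few genes. Of 4 tested megakaryocyte markers 1 rose and 1 fell. Of 5 tested monocyte markers 2 rose and 0 fell, and of 5 tested erythroid markers 1 rose and 0 fell. Of 9 HSC markers 0 rose and 1 fell. Of all tested genes 10.6% rose and 4.18% fell. In a sorted bulk sample, fewer cells of a type and less RNA per cell cannot be told apart. Ribosomal protein genes had a median log2 difference (*Ltbr*-/- minus Ly5.1) of 0.79 over 81 genes against −0.01 over all tested genes, so that centring on them lowers every difference by 0.88. Of these 81 genes 78 rose and 1 fell. Any log2 difference between 0 and 0.88 therefore changes sign under this centring, whichever gene it belongs to.

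LT/ST-HSCs of both genotypes expressed all 4 JAKs and all 4 STATs. Over all 6 samples, *Jak3* had a median signal of 1010 per kb of its longest coding transcript (range 910 to 1044) and *Jak1* one of 894 per kb (767 to 1015). These ranges overlapped over all 6 samples. In *Ltbr*-/- cells the ranges were separate, with *Jak3* (910 to 1044) above *Jak1* (767 to 846). In Ly5.1 cells *Jak3* (1000 to 1037) and *Jak1* (942 to 1015) overlapped. Among the STATs, *Stat5a* stood at a median of 510 per kb (498 to 605), *Stat6* at 458 (402 to 519), *Stat5b* at 363 (311 to 413) and *Stat3* at 352 (292 to 400), each overlapping the next in order. *Jak2*, the kinase of the erythropoietin and interleukin-3 receptors, had 350 per kb (312 to 434) and *Tyk2*, which serves the interferon and interleukin-12 receptors, 262 per kb (243 to 292). *Socs2*, which limits growth hormone and STAT5 signalling, was lowest at 52.0 per kb (48.3 to 54.9). Neighbours in this order had separate ranges at 3 places, between *Jak1* and *Stat5a*, between *Jak2* and *Tyk2*, and between *Tyk2* and *Socs2*.

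**Figure D1:**
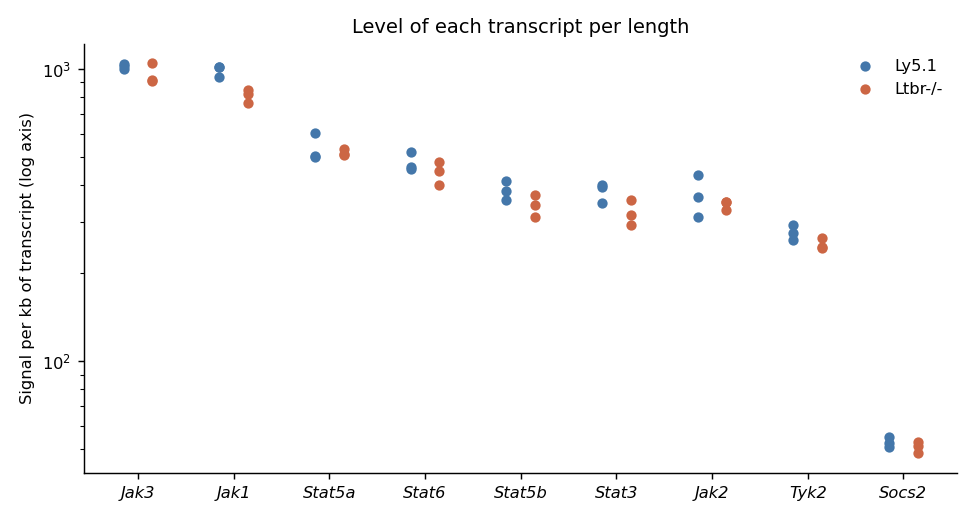
Signal per kb of the longest coding transcript (log axis) of each of the 9 genes in the 3 Ly5.1 (blue) and 3 *Ltbr*-/- (orange) samples, one point per sample. *Jak3* and *Jak1* lie between 767 and 1044 per kb, and *Socs2* lies far below the rest at 48.3 to 54.9.

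None of the 9 transcripts differed by 1.5-fold between *Ltbr*-/- and Ly5.1 LT/ST-HSCs. The count of called genes was 0 of 9, where 2.78% of all tested genes were called. At an adjusted p under 0.05 with no fold threshold, *Jak1* and *Stat3* fell, which is 2 of 9 where 14.8% of all tested genes passed and 4.18% passed in the lower direction. The same 2 genes were under 0.05 without adjustment. The count was 0 without *Ltbr*-/- replicate 2 and 1 without *Ltbr*-/- replicate 3, Ly5.1 replicate 2 or Ly5.1 replicate 3. The values of the genotypes did not overlap for 1 of 9 genes, *Jak1*, where 30.4% of all tested genes had separate groups. All 9 log2 differences were below 0, as were 53.6% of those of all tested genes. Their median was −0.11, against −0.01 over all tested genes.

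**Figure D2:**
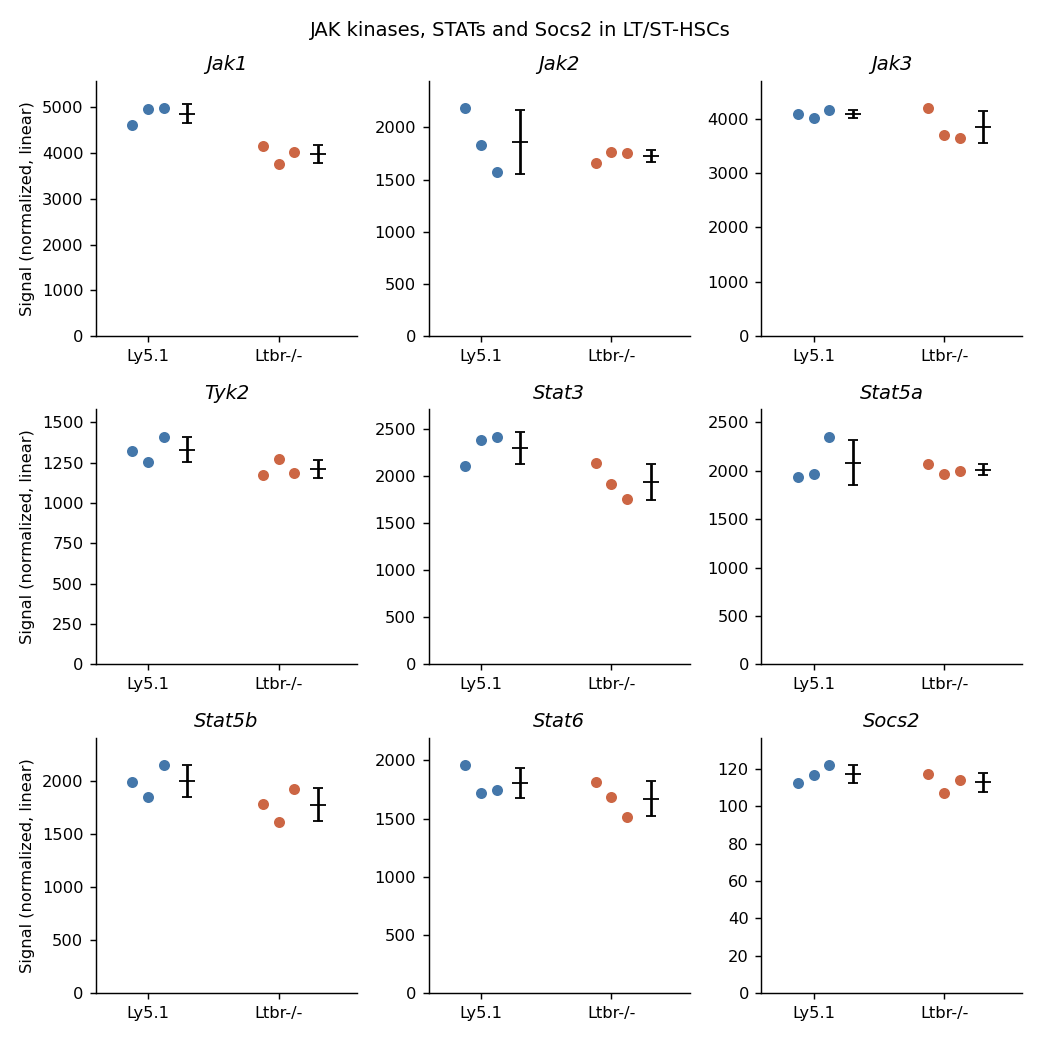
Deposited signal (linear axis from 0) of the 9 genes, one panel per gene, with one point per sample and the mean ± SD of 3 samples as a black bar beside the points. Only in the *Jak1* panel do all 3 *Ltbr*-/- samples (3761 to 4151) lie below all 3 Ly5.1 samples (4620 to 4980).

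*Jak1* encodes the kinase shared by the interferon, gp130 and common gamma chain receptors. Its signal was 4151, 3761 and 4022 in the *Ltbr*-/- samples and 4620, 4976 and 4980 in the Ly5.1 samples. Every *Ltbr*-/- sample was thus below every Ly5.1 sample. The mean was 3978 ± 199 in *Ltbr*-/- and 4859 ± 206 in Ly5.1 cells (SD, n = 3 each). The transcript fell by 18.1% (log2 difference −0.29, SE 0.07, limma adjusted p = 0.00498), with a 95% interval from −26.2 to −9.23%. The exact two-sided permutation test gave p = 0.1, the smallest that 3 against 3 samples can give. Without *Ltbr*-/- replicate 2, the lowest of the samples, the difference was −0.25 and the adjusted p 0.0610. In each of the 16 other alternatives that were not centred on ribosomal protein genes it stayed below 0.05.

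*Jak3* encodes the kinase that pairs with Jak1 in the lymphoid cytokine receptors that hold the common gamma chain. Its signal was 4196, 3697 and 3659 in *Ltbr*-/- cells and 4099, 4020 and 4167 in Ly5.1 cells. The groups overlapped, since *Ltbr*-/- replicate 1 was the highest of all 6 samples. The difference was −6.15% (95% interval −15.6 to 4.36%, log2 difference −0.09, adjusted p = 0.470). Under quantile normalization it was −0.21 (adjusted p = 0.0406). Within a sample, the ratio of *Jak3* to *Jak1* signal was 1.01, 0.983 and 0.910 in *Ltbr*-/- and 0.887, 0.808 and 0.837 in Ly5.1 cells. This ratio was higher in each *Ltbr*-/- sample than in any Ly5.1 sample (log2 difference 0.20, exact permutation p = 0.1), and like the ratios of the other JAKs below it does not depend on a factor that scales a whole sample.

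*Jak2* had a signal of 1655, 1759 and 1758 in *Ltbr*-/- and of 2182, 1832 and 1570 in Ly5.1 cells. The Ly5.1 samples spread over the whole range, with the highest and the lowest of the 6 values among them. The difference was −6.59% (95% interval −18.0 to 6.44%, log2 difference −0.10, adjusted p = 0.541), and it turned to 0.02 on the log2 scale without Ly5.1 replicate 1. *Tyk2* had a signal of 1173, 1272 and 1188 in *Ltbr*-/- and of 1322, 1257 and 1410 in Ly5.1 cells, overlapping by 1 sample of each genotype. Its difference was −8.88% (95% interval −19.2 to 2.82%, log2 difference −0.13, adjusted p = 0.327). The ratios to *Jak1* differed by 0.19 for *Jak2* and 0.15 for *Tyk2* on the log2 scale, with exact permutation p of 0.4 and 0.3.

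*Stat3*, the factor activated through gp130 and the G-CSF receptor, was the only STAT of the 4 to pass the test. Its signal was 2144, 1915 and 1761 in *Ltbr*-/- cells and 2108, 2383 and 2418 in Ly5.1 cells. *Ltbr*-/- replicate 1 was above Ly5.1 replicate 1, and the groups therefore overlapped. The mean was 1940 ± 193 against 2303 ± 170 (SD, n = 3 each), and the transcript fell by 15.9% (log2 difference −0.25, SE 0.09, adjusted p = 0.0444, 95% interval −25.5 to −5.09%). The exact permutation p was 0.2. This result was close to the threshold, passed in 7 of 17 alternatives without ribosomal centring and rested on single libraries. The adjusted p was 0.122 without *Ltbr*-/- replicate 2, 0.262 without *Ltbr*-/- replicate 3, 0.134 without Ly5.1 replicate 2 and 0.115 without Ly5.1 replicate 3. Corrected for transcript length and GC content, the difference was −0.18 (adjusted p = 0.124), and with the replicate number as a block the adjusted p was 0.0522.

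The STAT5 genes act below Jak2 in blood-forming cells. *Stat5a* had a signal of 2074, 1971 and 1994 in *Ltbr*-/- and of 1935, 1963 and 2351 in Ly5.1 cells. The 3 *Ltbr*-/- values lay inside the Ly5.1 range, and the difference was −2.99% (95% interval −13.9 to 9.31%, log2 difference −0.04, adjusted p = 0.790). It became 0.05 on the log2 scale without Ly5.1 replicate 3, the high sample. *Stat5b* had a signal of 1789, 1619 and 1933 in *Ltbr*-/- and of 1998, 1850 and 2153 in Ly5.1 cells. *Ltbr*-/- replicate 3 was above Ly5.1 replicate 2, so the groups overlapped, and the difference was −11.1% (95% interval −21.2 to 0.377%, log2 difference −0.17, adjusted p = 0.200). The ratio of *Stat5a* to *Stat5b* within a sample was 1.16, 1.22 and 1.03 in *Ltbr*-/- and 0.969, 1.06 and 1.09 in Ly5.1 cells (exact permutation p = 0.3). Reads from within the identical run fit both transcripts, and their part in this ratio was not tested.

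*Stat6*, the factor of interleukin-4 and interleukin-13 signalling, had a signal of 1817, 1683 and 1516 in *Ltbr*-/- and of 1958, 1718 and 1744 in Ly5.1 cells. The highest *Ltbr*-/- sample was above the 2 lower Ly5.1 samples. The difference was −7.52% (95% interval −18.1 to 4.48%, log2 difference −0.11, adjusted p = 0.433).

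*Socs2*, a classical STAT5 target as well as an inhibitor, had a signal of 117, 107 and 114 in *Ltbr*-/- and of 113, 117 and 122 in Ly5.1 cells. The groups overlapped in part, with *Ltbr*-/- replicate 2 below all Ly5.1 samples and Ly5.1 replicate 3 above all *Ltbr*-/- samples. The difference was −3.71% (95% interval −14.1 to 7.92%, log2 difference −0.05, adjusted p = 0.721). Values this low are pulled toward the mean of all samples by the regularized log, which makes differences smaller than in counts.

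**Figure D3:**
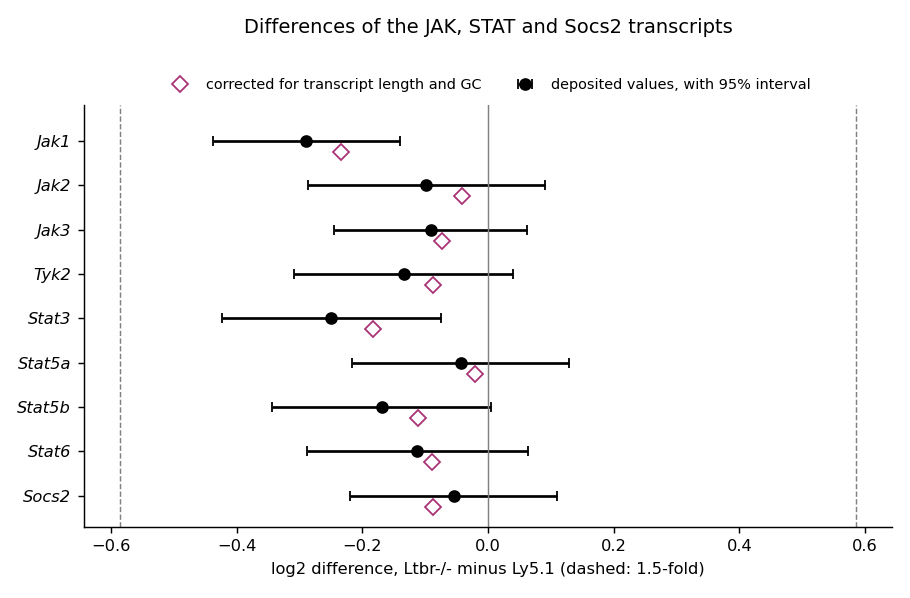
Log2 difference (*Ltbr*-/- minus Ly5.1) of the 9 transcripts with the 95% interval of the limma fit (black) and the value after correction for transcript length and GC content (open diamonds). Dashed lines mark 1.5-fold, which no point reaches, and the intervals of *Jak1* and *Stat3* lie wholly below 0.

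The genes whose log2 signal followed that of *Jak1* most closely over the 6 samples were *Zfp433* (Pearson r = 0.995), *Htt* (r = 0.993) and *Sugp2* (r = 0.990). With 6 samples in 2 genotypes these values are descriptive, and the samples share the normalization.

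Other genes of the pathway moved in both directions. Of 95 further JAK-STAT genes listed by role, 94 were found and 87 tested. At an adjusted p under 0.05, 12 rose, where 10.6% of all tested genes rose, and 10 fell, where 4.18% fell. Of these, 3 rose by more than 1.5-fold (*Cish*, *Csf2rb2* and *Id1*) and 0 fell by as much. The log2 differences of the 12 were above 0 in the alternatives other than centring on ribosomal protein genes, under which all 12 were below 0.

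**Figure D4:**
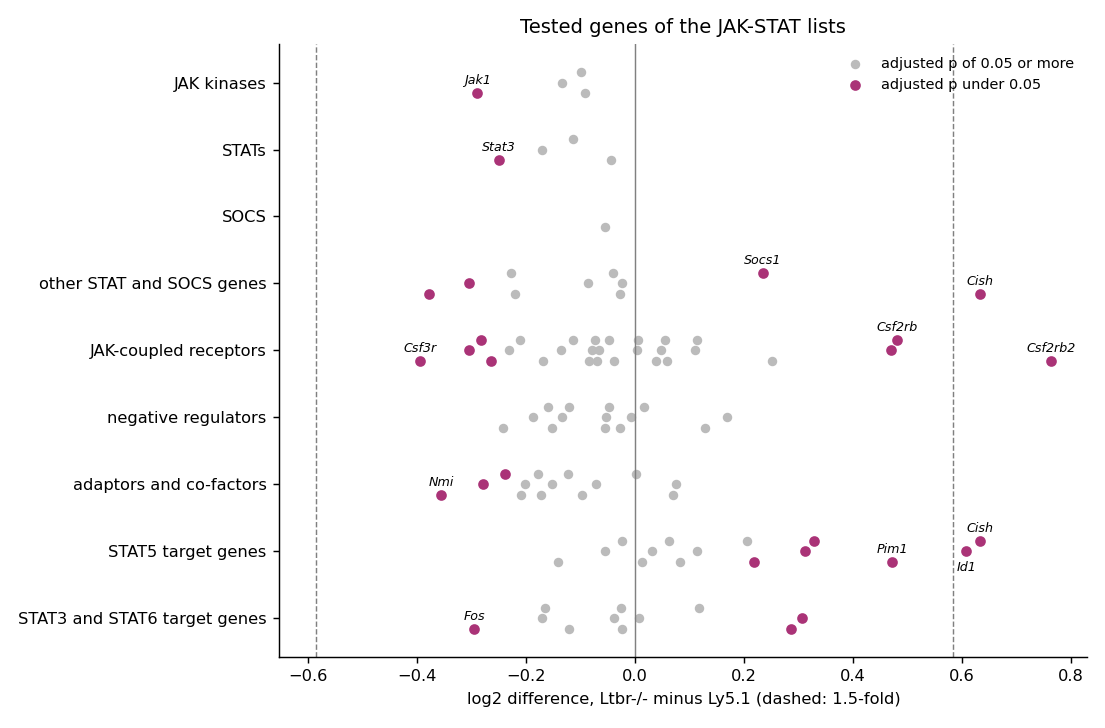
Log2 difference (*Ltbr*-/- minus Ly5.1) of each tested gene of the JAK-STAT lists, one row per list and one point per gene, purple where the limma adjusted p was under 0.05. The JAK and STAT genes lie between −0.29 and −0.04, whereas *Cish*, *Csf2rb2* and *Id1* lie beyond the dashed line of 1.5-fold to the right on the deposited scale and below 0 once centred on ribosomal protein genes.

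Among the other STAT and SOCS genes (10 of 10 tested, median log2 difference −0.06), 2 rose (20%) and 2 fell (20%). Of all tested genes 10.6% rose and 4.18% fell. The count that rose was 1 without *Ltbr*-/- replicate 3 or Ly5.1 replicate 2, and the count that fell was 1 without *Ltbr*-/- replicate 1 or 3 or Ly5.1 replicate 1. Of these, *Cish*, *Socs1* and *Socs5* are described here. *Stat2*, a factor of the interferon response, was 645 to 653 in *Ltbr*-/- and 689 to 815 in Ly5.1 cells (log2 difference −0.23, adjusted p = 0.0923). *Stat4*, activated by interleukin-12, was 997 to 1128 against 1184 to 1284 (−0.22, adjusted p = 0.0876). Both had separate groups, as did 7 of the 10 genes of this list and 30.4% of all tested genes, and neither passed. *Stat2* and *Stat4* were chosen after their values were seen.

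*Cish* encodes a SOCS family inhibitor that STAT5 induces, and was the STAT or SOCS gene with the largest difference of those examined. Its signal was 860, 903 and 994 in *Ltbr*-/- and 606, 522 and 656 in Ly5.1 cells. All *Ltbr*-/- samples were above all Ly5.1 samples, and the means were 919 ± 68.3 and 594 ± 67.6 (SD, n = 3 each). *Cish* rose by 55.1% (log2 difference 0.63, SE 0.10, adjusted p = 3.34e-06). The difference turned to −0.25 under centring on ribosomal protein genes, which lowers every difference by 0.88. *Cish* passed the adjusted p in the other 17 alternatives (0.54 to 0.71), but was under 1.5-fold without *Ltbr*-/- replicate 3 (0.58) and without Ly5.1 replicate 2 (0.54). *Socs2*, the member of the same family followed above, did not pass in the same cells, with a log2 difference of −0.05, and the difference between *Cish* and *Socs2* was not tested.

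*Socs1*, which inhibits JAKs directly, was 79.2 to 83.4 in *Ltbr*-/- and 67.6 to 70.8 in Ly5.1 cells. It rose on the deposited scale (0.23, adjusted p = 0.0179) and was −0.65 after ribosomal centring. The adjusted p of *Socs1* was 0.0859 without *Ltbr*-/- replicate 3 and 0.0594 without Ly5.1 replicate 2. *Socs5* was 244 to 308 against 314 to 379 and fell (−0.30, adjusted p = 0.0353), a result that passed in 7 of 16 alternatives without ribosomal centring. *Socs3*, the inhibitor of gp130 and G-CSF receptor signalling, had a log2 difference of −0.02 (adjusted p = 0.871).

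Most receptor chains through which JAKs act did not pass the test. Of 32 listed receptors 28 were tested and 3 rose (10.7%), close to the 10.6% of all tested genes. There were 4 that fell (14.3%, where 4.18% of all tested genes fell), and the median log2 difference was −0.06. The count that fell was 1 without *Ltbr*-/- replicate 2 or Ly5.1 replicate 1, and 2 without *Ltbr*-/- replicate 1 or 3. *Osmr*, *Prlr* and *Lepr* were listed at the constant value of 1 in all samples. The 3 that rose are the receptor chains of interleukin-3. *Csf2rb2*, the mouse beta chain particular to interleukin-3, had a signal of 894, 906 and 850 in *Ltbr*-/- and 463, 483 and 629 in Ly5.1 cells. The groups were far apart, and *Csf2rb2* rose by 69.8% (log2 difference 0.76, SE 0.10, adjusted p = 2.02e-07), more than any other listed gene, though it was −0.12 after ribosomal centring. *Csf2rb*, the beta chain shared with GM-CSF and interleukin-5, was 1405 ± 18.9 against 1007 ± 46.1 (SD, n = 3 each, log2 difference 0.48, adjusted p = 5.05e-05, −0.40 after ribosomal centring). *Il3ra*, the interleukin-3 alpha chain, was 1102 ± 95.1 against 797 ± 87.5 (0.47, adjusted p = 0.000325, −0.41 after ribosomal centring). *Csf2rb* and *Csf2rb2* share 10.5 and 10.9% of their 76-base windows with each other.

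The interleukin-3 receptor chains are also known from mast cells and basophils. The summed marker signal of these cells was higher in *Ltbr*-/- samples, as given above, and most of that gap lay in *Cma1*. The signal of *Cma1* was 2195 ± 225 in Ly5.1 and 5470 ± 285 in *Ltbr*-/- cells (SD, n = 3 each, log2 difference 1.32). Of 6 tested markers 2 rose and 1 fell, where 10.6% of all tested genes rose and 4.18% fell. *Cma1* was the 1 that was called, where 2.78% of all tested genes were, and *Mcpt4* was at 4.88 and 4.89. The part of such cells in the receptor result was not tested.

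The 4 receptor chains that fell were *Csf3r*, *Il6st*, *Il2rg* and *Il11ra1*. *Csf3r*, the G-CSF receptor, was 2055, 1730 and 1996 in *Ltbr*-/- and 2760, 2487 and 2349 in Ly5.1 cells. The genotypes did not overlap, and *Csf3r* fell by 23.9% (log2 difference −0.39, SE 0.09, adjusted p = 0.000862), passing in each alternative. G-CSF receptors are abundant on neutrophils, whose 7 markers summed lower in *Ltbr*-/- samples as given above. At an adjusted p under 0.05, 6 of 7 were lower, where 4.18% of all tested genes were. Of the 7 markers 0 were called, where 2.78% of all tested genes were. The part of neutrophils in the *Csf3r* result was not tested. *Il6st*, which encodes gp130, had a log2 difference of −0.30 (adjusted p = 0.0254), *Il2rg*, the common gamma chain, one of −0.28 (adjusted p = 0.0187) and *Il11ra1* one of −0.26 (adjusted p = 0.0448). The adjusted p of *Il2rg* was 0.0817 without *Ltbr*-/- replicate 1, 0.0555 without *Ltbr*-/- replicate 2 and 0.0572 without Ly5.1 replicate 1. *Il6st* passed in 10 of 16 and *Il11ra1* in 9 of 17 alternatives without ribosomal centring. *Il3ra*, *Il2rg* and *Il11ra1* were chosen after their values were seen.

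**Figure D5:**
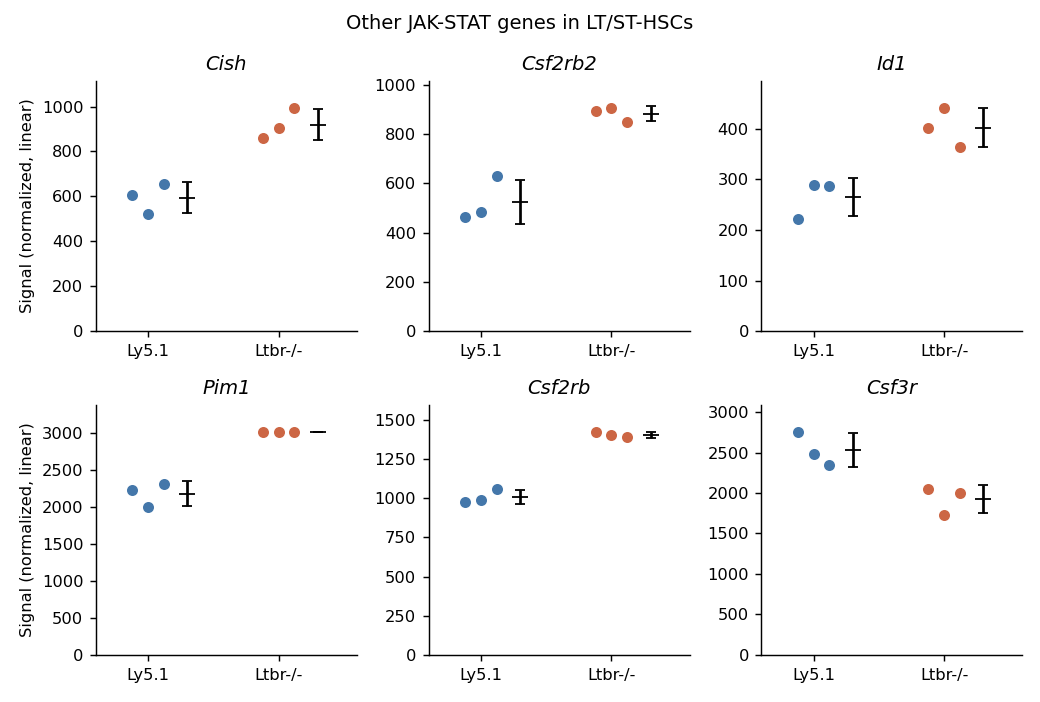
Deposited signal (linear axis from 0) of 6 further JAK-STAT genes, one point per sample and the mean ± SD of 3 samples as a black bar. *Cish*, *Csf2rb2*, *Id1*, *Pim1* and *Csf2rb* are higher in all 3 *Ltbr*-/- samples on this scale, though not after centring on ribosomal protein genes, and *Csf3r* is lower in all 3.

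STAT5 target genes were counted from a list of 15, all of them tested. Of these, 6 rose (40%) and 0 fell, where 10.6% of all tested genes rose, and the median log2 difference was 0.11. After centring on ribosomal protein genes 0 rose and 14 fell, where 17 of all 13108 tested genes rose and 12828 fell. On the deposited scale, the count that rose was 3 without *Ltbr*-/- replicate 2, *Ltbr*-/- replicate 3 or Ly5.1 replicate 1, and 4 to 5 without one of the others. Besides *Cish*, *Id1*, an inhibitor of basic helix-loop-helix factors, passed both thresholds. Its signal was 401, 441 and 364 in *Ltbr*-/- and 221, 288 and 286 in Ly5.1 cells. The groups were separate and *Id1* rose by 52.5% (log2 difference 0.61, adjusted p = 2.75e-05, −0.27 after ribosomal centring). It was under 1.5-fold without *Ltbr*-/- replicate 2 (0.54), without Ly5.1 replicate 1 (0.48) and with the length and GC correction (0.44).

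*Pim1*, a serine/threonine kinase that promotes survival, had a signal of 3018, 3019 and 3016 in *Ltbr*-/- and of 2233, 1993 and 2309 in Ly5.1 cells. The *Ltbr*-/- samples were nearly equal and all higher. *Pim1* rose by 38.8% (log2 difference 0.47, SE 0.08, adjusted p = 2.38e-05) and passed in the 17 alternatives without ribosomal centring, under which it was −0.41. The remaining 3 that rose were its relative *Pim2* (0.33, adjusted p = 0.0211), the anti-apoptotic *Bcl2* (0.31, adjusted p = 0.0317) and *Myc* (0.22, adjusted p = 0.0443), with −0.55, −0.57 and −0.66 after ribosomal centring. They passed in 11 of 17, 10 of 16 and 8 of 17 of the other alternatives. The cyclins of the list had log2 differences of 0.03 (*Ccnd1*, adjusted p = 0.880), 0.01 (*Ccnd2*, adjusted p = 0.952) and 0.08 (*Ccnd3*, adjusted p = 0.592), and the anti-apoptotic *Mcl1* one of −0.14 (adjusted p = 0.331). *Pim1*, *Pim2*, *Bcl2*, *Myc*, the cyclins and *Mcl1* were chosen after their values were seen.

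Of 15 listed targets of STAT3 and STAT6, 11 were tested, with a median log2 difference of −0.02. Of the 11, 2 rose (18.2%, where 10.6% of all tested genes rose) and 1 fell (9.09%, where 4.18% fell). The count that rose was 0 without *Ltbr*-/- replicate 3 or Ly5.1 replicate 2, and 1 without *Ltbr*-/- replicate 1 or Ly5.1 replicate 1 or 3, and 2 fell without Ly5.1 replicate 2. *Fos*, an immediate early factor, fell (−0.29, adjusted p = 0.000689) and passed in each alternative. *Cebpd*, a factor that gp130 signalling induces, and *Vegfa* rose on the deposited scale (0.31, adjusted p = 0.0175, and 0.29, adjusted p = 0.0315) and were −0.57 and −0.59 after ribosomal centring. *Cebpd* did not pass without *Ltbr*-/- replicate 3 (0.0760) or Ly5.1 replicate 2 (0.119), and *Vegfa* passed in 11 of 16 other alternatives.

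Of the 14 negative regulators, among them the phosphatases that remove phosphate from JAKs and STATs, 0 rose and 0 fell (limma), with a median log2 difference of −0.05. Of all tested genes 10.6% rose and 4.18% fell. At an unadjusted p under 0.05 there were 3. The count that fell was 3 under quantile normalization, and 1 with the stricter filter, with the length and GC correction and without *Ltbr*-/- replicate 1. After ribosomal centring it was 14, where 12828 of all 13108 tested genes fell. The closest to the threshold was *Cbl*, a ubiquitin ligase (−0.24, adjusted p = 0.0793), chosen after its value was seen. Of the 14 adaptors and co-factors, with a median of −0.16, 0 rose and 3 fell (21.4%, where 4.18% of all tested genes fell). They were *Nmi*, a STAT-binding protein (−0.36, adjusted p = 0.0167), *Ncoa1*, a coactivator (−0.28, adjusted p = 0.0371), and the JAK2-binding adaptor *Sh2b1* (−0.24, adjusted p = 0.0483, chosen after its value was seen). The count that fell was 0 without *Ltbr*-/- replicate 3 or Ly5.1 replicate 1, and 1 without *Ltbr*-/- replicate 2. It was also 1 without the filter on low values and with eBayes without a trend. With repeated names summed, with the length and GC correction and without Ly5.1 replicate 2 it was 2. *Nmi* did not pass without *Ltbr*-/- replicate 3 (0.200), without Ly5.1 replicate 1 (0.146) or with eBayes without a trend (0.0670), and *Ncoa1* and *Sh2b1* passed in 10 of 17 and 9 of 17 alternatives without ribosomal centring.

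STAT dimers bind palindromes of the form TTCNNNGAA, and Stat6 also binds TTCNNNNGAA with a longer spacer. Both read the same on either strand. In the 250 bases before RefSeq transcription starts (GRCm38.p6), the first occurs in 7.02% and the second in 5.85% of 32851 mouse promoters. In the promoters of *Jak1*, *Jak2*, *Jak3*, *Tyk2*, *Stat3*, *Stat5a*, *Stat5b* and *Stat6* (10 promoters of 8 genes), 0 held either. The promoters of *Stat5a* (chr11:100859406-100859655 and chr11:100860234-100860483) and *Stat5b* (chr11:100822571-100822820 and chr11:100850582-100850831) lie inside the gene spans given above. The 346 bases between *Stat5b* and *Stat5a* were therefore not covered. Of 10 promoters of 9 other genes named above, 1 held the first form. It belongs to *Csf2rb2*, the receptor chain with the largest difference, and is shown in capitals in the 250 bases before its start (chr15:78305722-78305971, minus strand):
Csf2rb2: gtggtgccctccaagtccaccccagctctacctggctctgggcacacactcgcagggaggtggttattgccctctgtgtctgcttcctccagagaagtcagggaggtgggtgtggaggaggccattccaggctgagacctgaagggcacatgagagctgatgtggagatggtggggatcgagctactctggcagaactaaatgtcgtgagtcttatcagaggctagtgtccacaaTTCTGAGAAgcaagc
The match begins 15 bases before the start. It describes the letters only, and binding was not measured.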

How the data were processed

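RNA of 3 *Ltbr*-/- and 3 Ly5.1 samples of sorted LT/ST-HSCs was sequenced by the authors from stranded mRNA libraries in single reads of 76 bases. They assembled the reads with SeqMan NGen and quantified them with ArrayStar. The deposited signal per gene, with 26595 values per sample, is 2 to the power of a regularized log value, as read from the values and the study's methods, and therefore already holds size factors and shrinkage that makes small differences smaller. The files used here hold no counts, so counting error cannot be computed from them. The submitters' processing notes name GRCm38 (mm10) and DESeq2.

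Groups came from the sample labels, which name no batch. Of entries that repeat a name, only the one with the highest mean was used. The log2 signal (no pseudocount) was fitted over names in the upper 50% of mean values with limma 3.58.1 (lmFit, eBayes with trend) in R 4.3.3. Benjamini-Hochberg adjustment was used, and calls needed an adjusted p under 0.05 plus a 1.5-fold difference. P-values measure the spread between these pools. Single values were also compared by an exact two-sided permutation test.

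Members, lists and markers were chosen with earlier results of these data known. The genes named were the 9 members, *Ltbr*, each listed gene past both thresholds, for each list the 2 with the largest difference in each direction among those with an adjusted p under 0.05, and the 3 most like *Jak1*. Others are marked in the text or are checks (markers, genes sharing sequence, genes at a constant value, *Socs3*). Windows and promoters came from GENCODE M21 and RefSeq. Some results that the rule on named genes would give are not reported here. Promoters for *Socs2* and some named genes were not used here. Alternatives changed the filter, normalization, centring, pseudocount (1), variance model, fold, handling of repeated names, replicate block and length and GC correction, or left out each replicate.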

Additional observations from a re-analysis of the deposited data

How the results depend on the processing

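The signal holds no depth, 3 pools per genotype bound the precision, and the regularized log makes differences of low genes smaller. The count of 9 members past the adjusted p was 2. It was 1 (*Jak1*) without the filter on low values, with the replicate block, with eBayes without a trend, with repeated names summed, after correcting for transcript length and GC, and after that correction joined with the replicate block. The last of these was chosen after seeing the data. It was 3 with quantile normalization (*Jak1*, *Jak3* and *Stat3*). Leaving out 1 replicate gave 0 to 2. The count of members past both thresholds was 0 in each of these (0 to 0 without 1 replicate).

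Centring on ribosomal protein genes put 9 of 9 members past both thresholds and 9 past the adjusted p alone, all lower, with 78 listed genes and 12037 of all tested genes (0 higher). It reversed *Cebpd* (−0.57), *Cish* (−0.25), *Csf2rb* (−0.40), *Csf2rb2* (−0.12), *Id1* (−0.27), *Socs1* (−0.65), *Vegfa* (−0.59), *Pim1* (−0.41), *Pim2* (−0.55), *Bcl2* (−0.57), *Myc* (−0.66) and *Il3ra* (−0.41). Without 1 replicate, *Jak2* ranged from −0.215 to 0.0228 (reversed without Ly5.1 WT replicate 1) and *Stat5a* from −0.094 to 0.0463 (reversed without Ly5.1 WT replicate 3).

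Of the 87 listed genes 3 were past both thresholds, 2 to 3 without 1 replicate, 10 with the fold threshold at a log2 difference of 0.32 and 0 with a fold of 2. Of all tested genes 364 were (356 higher, 8 lower), 342 to 407 without 1 replicate, 1118 at 0.32 (947 higher, 171 lower) and 42 at 2-fold. With quantile normalization 261 were higher and 28 lower. Same-numbered samples of the genotypes had correlations of deviations of 0.03, −0.01 and 0.09, so the numbers were not taken as pairs. With the replicate block the adjusted p of *Stat3* was 0.0522, and 364 genes passed both thresholds.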
